A study of Homo sapiens with 6 samples.

Results

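The p21-activated kinases are 6 human genes, PAK1 to PAK6, and the chromatin around them was examined in HLF cells treated with the menin inhibitor SNDX-5613 or with its vehicle. The 6 genes were taken as a named family out of 20007 protein-coding genes of the GENCODE annotation of hg38. The members were chosen by family name, and PAK3 was selected on its promoter values (the −log10 p of the peak and its rank), which differed between the groups in these same libraries. Everything said about PAK3 below is therefore a description and carries no test. An accessible site was assigned to a PAK gene when its strongest summit lay within 1 kb of any annotated transcription start, inside the gene, or within 50 kb of it. This gave 84 sites out of 166021 in the whole series, with 15 at a PAK start, 30 elsewhere inside a PAK gene and 39 in the flanks.

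ATAC-seq cuts open chromatin with the Tn5 transposase and maps the cuts by sequencing, so that a peak marks DNA that the enzyme could reach. HLF is an established human line from a liver tumor. There were 3 libraries from cells given DMSO and 3 from cells given 5 µM SNDX-5613, all labelled as batch 1. The labels state 24 hours of treatment and the methods of the study state 4 days, so the exposure cannot be fixed from these sources. No genetic change separated the groups, and the study describes a replicate as 1 dish whose cells were divided between drug and vehicle.

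PAK proteins are serine/threonine kinases that bind the active form of the small GTPases CDC42 and RAC. PAK1, PAK2 and PAK3 form group I, which the GTPase releases from autoinhibition, and PAK4, PAK5 and PAK6 form group II. Through LIM kinase, stathmin and BAD they act on actin, microtubules and survival. PAK1, PAK2 and PAK4 are broadly expressed, whereas PAK3 and PAK5 are known mainly from the nervous system.

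The libraries differed in depth, which touches every comparison below. The number of regions called was 88026 to 113675 in 5 libraries and 40568 in SNDX-5613 replicate 3, where the genome-wide background was 16.2% of the median of the others. In that library the weakest call stood 14.2-fold above the genome-wide background, against 4.60 to 6.02-fold in the other 5. Peak strength was therefore given as a percentile, that is, the percent of a fixed set of 33405 shared sites, each with a peak in every library, whose −log10 p in the same library was lower or equal. Values are given in the order of the replicates, 1 to 3, unless stated. Hepatocyte genes had little accessibility in this line: ALB, APOA1 and HNF4A had no promoter peak in any library, and AFP had a weak one in 5. KRT8, KRT18 and VIM had one in all 6.

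The sequence upstream of the start that carried the promoter peak is shown for the promoters that differed between the groups, PAK3 and PAK5, and for the most accessible PAK promoter, PAK4. Each is the 200 bases that end just before an annotated start, read on the strand of the gene in hg38, with CCAAT, the box read by the factor NF-Y, or its reverse complement ATTGG in capitals. The PAK3 window was chrX:111095991-111096190 on the plus strand, the PAK5 window chr20:9839077-9839276 on the minus strand and the PAK4 window chr19:39125570-39125769 on the plus strand.

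PAK3: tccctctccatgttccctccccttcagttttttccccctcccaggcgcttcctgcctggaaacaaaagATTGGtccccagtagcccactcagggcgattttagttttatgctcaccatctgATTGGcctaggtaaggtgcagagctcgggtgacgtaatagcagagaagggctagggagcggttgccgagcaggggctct

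PAK5: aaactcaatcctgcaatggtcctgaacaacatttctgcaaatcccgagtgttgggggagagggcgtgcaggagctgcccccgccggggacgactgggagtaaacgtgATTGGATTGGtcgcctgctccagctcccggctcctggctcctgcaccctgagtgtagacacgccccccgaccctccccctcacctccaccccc

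PAK4: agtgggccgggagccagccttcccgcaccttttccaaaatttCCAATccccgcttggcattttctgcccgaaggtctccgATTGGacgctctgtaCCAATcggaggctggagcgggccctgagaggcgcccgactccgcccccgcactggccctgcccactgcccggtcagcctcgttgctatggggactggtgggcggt

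The PAK3 window held 2 matches, both as ATTGG, beginning 132 and 79 bases before the start. PAK5 also held 2, in direct tandem, beginning 93 and 88 bases before the start, and PAK4 held 3. Among the 200-base windows before the canonical starts of 20006 protein-coding genes, 30.4% held at least 1 match on either strand and 9.72% held at least 2. Unlike these, the windows of PAK4, of the internal PAK1 start and of the first PAK6 start do not end at a canonical start. The windows of PAK1, PAK2 and the canonical PAK6 start held none, and the window of the first PAK6 start held 1, beginning 108 bases before it. These matches describe letters and were not tested as sites.

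Searched on both strands as well were GGGCGG, the box of SP factors, CATTCC of the TEAD factors, AGATAA of the GATA factors and TGACTCA or TGAGTCA of AP-1. None of these 4 motifs occurred in the PAK3 or PAK5 window. GGGCGG, present in 56.3% of all windows, had 2 matches in PAK4, 4 in PAK2, 3 at the canonical PAK1 start and 1 at its internal start. The first PAK6 start had 1 match of CATTCC, present in 7.47% of all windows, and the canonical one had 1 of AGATAA, present in 4.78%. The PAK3 window had a GC content of 55.5% and a CpG ratio, observed over expected, of 0.390, both below the medians of all windows, which were 64.5% and 0.764. The PAK5 window had 63.0% GC and a CpG ratio of 0.517.

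On the percentile of shared sites, PAK3 had the largest difference between SNDX-5613 and DMSO of the 6 PAK promoters. In ranks within each whole list PAK5 exceeded it, with differences of 44.6 points for PAK5 and 33.5 for PAK3. In DMSO its promoter percentile was 5.14, 1.61 and 4.16. After SNDX-5613 it was 31.5, 44.8 and 46.1. All 3 DMSO values were near the bottom of the shared sites and all 3 SNDX-5613 values lay in the middle of them, with no overlap. The means were 3.64 ± 1.82 and 40.8 ± 8.08 (SD, n = 3 each), a difference of 37.2 points, and 34.6 when the shallow SNDX-5613 replicate 3 was left out of the means. In bulk cells, more cells with an open promoter and a promoter open for longer in each cell cannot be told apart. Of the 12791 protein-coding promoters with a peak in all 6 libraries, all SNDX-5613 values lay above all DMSO values in 7.12% and below them in 7.67%. A larger difference than that of PAK3 was measured at 11 promoters, and the median difference over all 12791 was -0.37 points. This set needs a peak in SNDX-5613 replicate 3, whose weakest call stood 14.2-fold above background. A promoter below that level in DMSO, as PAK3 was, entered the set only if it stood higher in that library. PAK3 was also selected on these values, so its place among them is a description and no support.

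**Figure D1:**
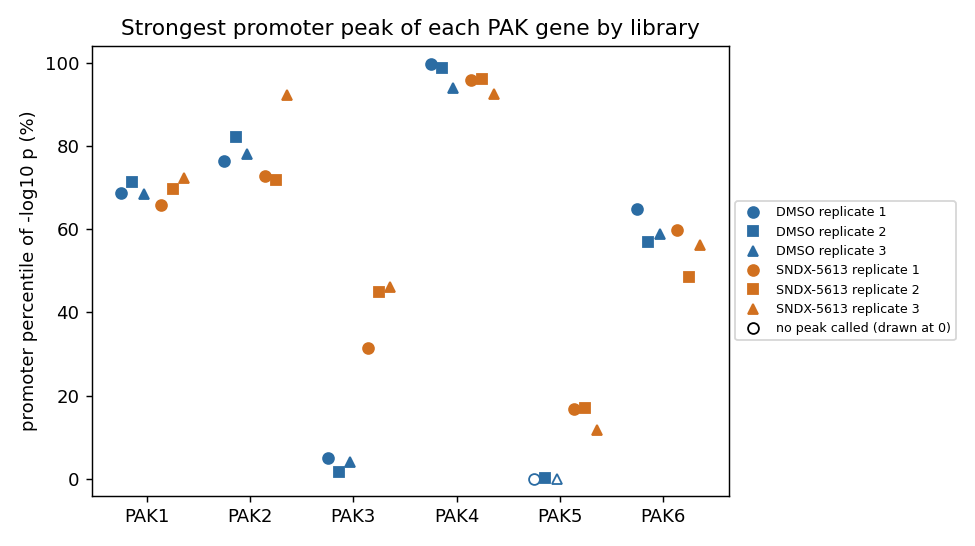
Percentile of −log10 p of the strongest promoter peak (vertical axis, %) for each PAK gene (horizontal axis), with 1 point per library, DMSO in blue and SNDX-5613 in orange. The SNDX-5613 points of PAK3, at 31.5 to 46.1, sit clear of its DMSO points at 1.61 to 5.14, PAK5 separates at a lower level, and the points of the other 4 genes overlap.

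**Figure D2:**
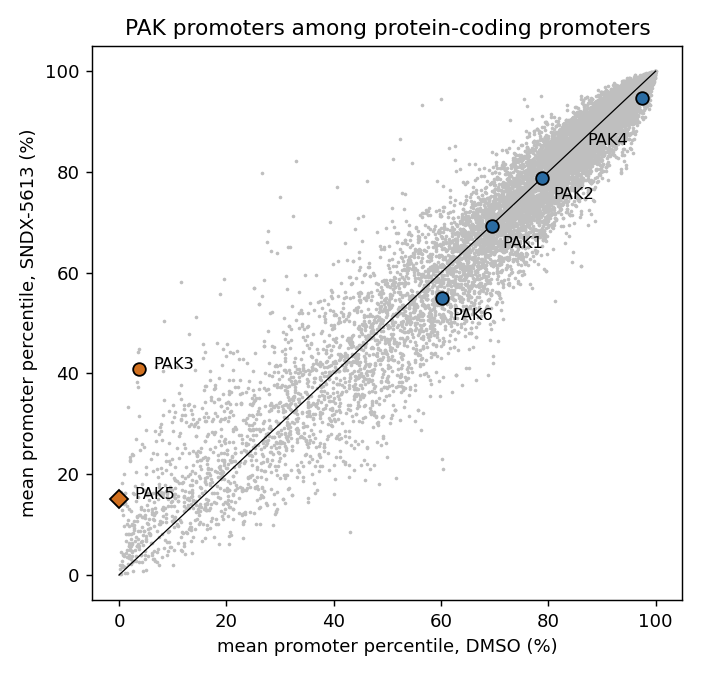
Mean promoter percentile in DMSO (horizontal axis, %) against SNDX-5613 (vertical axis, %) for 12791 protein-coding promoters with a peak in all 6 libraries (grey), with the PAK genes marked and the diagonal drawn. PAK3 at 3.64 and 40.8 lies far above the diagonal, PAK5 (diamond, with missing peaks taken as 0, so not among the grey points) lies at its lower left edge, and the other 4 lie within the cloud.

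The reads behind the PAK3 peak were few, and their number could be solved from the fold and the p-value of each peak as a whole-number pileup, the count of fragments stacked at the summit. The PAK3 pileup was 13, 13 and 16 in DMSO, against 46, 63 and 11 after SNDX-5613. The count of 11 came from the shallow replicate 3. Divided by the genome-wide background of each library, the level was 13.0, 9.96 and 11.1 in DMSO and 36.5, 41.7 and 52.1 in SNDX-5613. Exact Poisson 95% intervals, which cover counting error only, reached up to 22.3 in DMSO and down to 26.0 in SNDX-5613. The pileups derive from the values on which PAK3 was selected, so this gap is a description as well. The ratio of the group means was 3.83, and 3.45 without SNDX-5613 replicate 3.

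The weakest call of that shallow library, at 14.2-fold, stood above the PAK3 level of every DMSO library, so a PAK3 peak at the DMSO level would not have been listed at that depth. The deposited fold enrichment divides the pileup by the local background, with 1 added to each. It was 6.78, 5.53 and 6.58 in DMSO and 12.0, 12.0 and 7.27 in SNDX-5613. On this scale the groups were separated by less. The local background was also higher in SNDX-5613 replicates 1 and 2, at 2.92 and 4.31 against 1.06 to 1.58 in DMSO. Fold in the shallow replicate 3, at 7.27, was close to the highest DMSO value. The local background there, 0.650, was the lowest of any library, so the added 1 lowers fold most in that library.

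**Figure D3:**
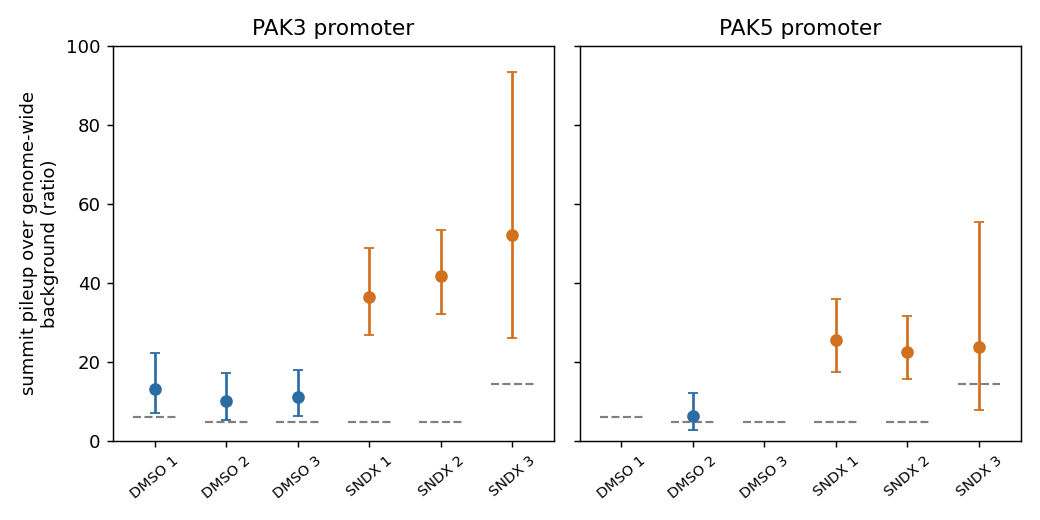
Summit pileup divided by the genome-wide background of the library (vertical axis, ratio) at the PAK3 and PAK5 promoters, by library (horizontal axis, SNDX standing for SNDX-5613), with exact Poisson 95% intervals as bars and the weakest call of each library as a dashed line. PAK3 lies at 9.96 to 13.0 in DMSO and 36.5 to 52.1 in SNDX-5613, and PAK5 has a point in 1 DMSO library only.

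The PAK3 peak lay in the same place in both groups. Relative to the canonical start at chrX:111096191, with minus signs for upstream, the strongest summit lay at -93, -126 and -48 bases in DMSO and at -127, -92 and -53 bases in SNDX-5613. Each of these 6 summits lay within the window printed above, 3 to 29 bases from the middle of the nearest ATTGG. The called region was 139, 168 and 381 bp wide in DMSO, and 689, 701 and 224 bp wide in SNDX-5613. SNDX-5613 replicate 2 had a further summit 132 bases downstream of the start, with a pileup of 31.

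PAK3 has 6 annotated starts, and the accessible one was the same in every library. The canonical start and the starts at chrX:111096325 and chrX:111096360, which share the peak, were covered in all 6 libraries. The start farthest upstream, at chrX:110944285, and those at chrX:111123077 and chrX:111142143 had no peak within 1 kb in any library. PAK1, PAK2, PAK3, PAK4 and PAK6, 5 of the 6 genes, had a promoter peak in all 6 libraries, as did 63.9% of protein-coding genes, and no PAK gene was without one in every library, as 19.7% were. Over the whole family, 27 of 63 starts had a peak in all 6 libraries and 27 had none in any.

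Site by site, the 283 kb PAK3 gene held little else. The intronic site at chrX:111100165-111100616, 4016 bp past the nearest start, had percentiles of 4.95, 8.88 and 2.47 in DMSO and 3.36 in SNDX-5613 replicate 1, with no peak in SNDX-5613 replicates 2 and 3. Its level over the genome-wide background was 13.0, 17.6 and 9.68 in DMSO and 16.7 in SNDX-5613 replicate 1, so that the 1 SNDX-5613 value lay among the DMSO values.

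2 weaker intronic sites lay between the first start and the canonical one. The site at chrX:110987402-110987533 had percentiles of 1.66 in DMSO replicate 1 and 0.216 in SNDX-5613 replicate 1, and the site at chrX:110992746-110993003 had 1.19 in DMSO replicate 3 and 2.98 in SNDX-5613 replicate 1. A site in the 3′ flank at chrX:111244402-111244531, whose nearest start 26029 bp away belongs to CAPN6, had 5.81 in DMSO replicate 1 and 2.25 in SNDX-5613 replicate 1. Each of these 3 sites appeared in 1 library of each group. Of 991 protein-coding genes of 200 to 400 kb, 16.8% held as few sites in the gene as the 4 of PAK3, and the median was 12.

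**Figure D4:**
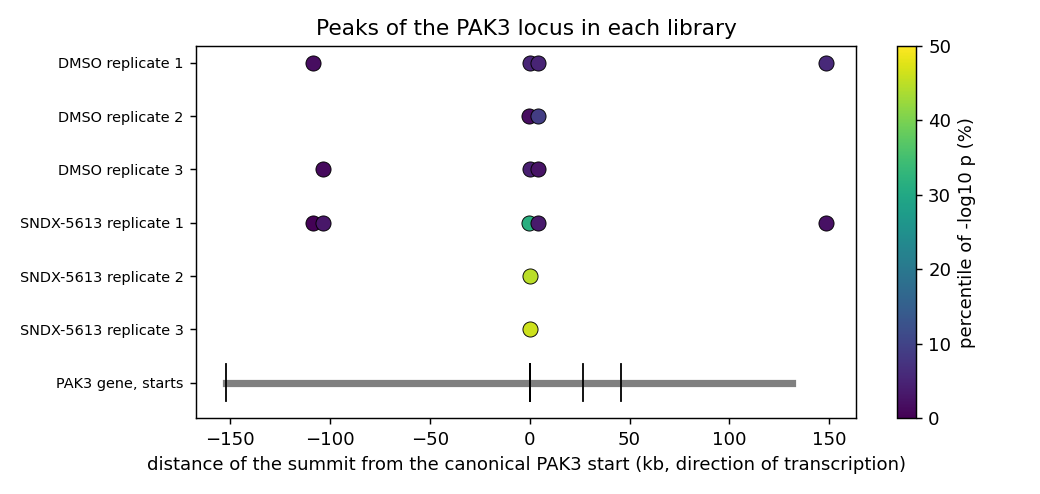
Peaks of the PAK3 locus in each library (one line per library), placed by distance of the summit from the canonical start (horizontal axis, kb) and coloured by percentile of −log10 p, with the gene as a grey bar and its annotated starts as ticks. The promoter peak is the only one present in all 6 libraries and the only one coloured above 10%.

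Among promoters, those whose 6 percentiles were closest to PAK3 by Euclidean distance were RASGEF1B, a guanine nucleotide exchange factor for RAP GTPases, ADAMTS17, a secreted metalloprotease, LRATD1, GHR, the growth hormone receptor, and NCAM1, a neural cell adhesion molecule. Their distances were 11.7, 15.3, 15.4, 16.3 and 17.5 over the 6 libraries. RASGEF1B had 12.4, 3.93 and 11.0 in DMSO and 35.1, 47.2 and 42.3 in SNDX-5613. These genes were picked for their likeness, so their separation between groups is no further evidence.

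PAK5, the other PAK gene with a mainly neural reputation, showed the next clearest separation, at a lower level. Its promoter peak was absent from DMSO replicates 1 and 3, and stood at a percentile of 0.245 in DMSO replicate 2. After SNDX-5613 it stood at 16.8, 17.0 and 11.7. With an absent peak taken as 0, the means were 0.0818 ± 0.142 and 15.1 ± 2.97 (SD, n = 3 each), a difference of 15.1 points with an exact two-sided permutation p of 0.1, the smallest that 3 against 3 libraries can give. A promoter peak in all 3 SNDX-5613 libraries and at most 1 DMSO library was found in 63 of 20007 protein-coding genes, or 0.315%, and the opposite in 0.54%. PAK5 was the 1 PAK gene with this pattern. Under a stricter peak threshold, −log10 q of at least 3, the PAK5 difference was 6.89 points (exact two-sided permutation p = 0.4). The peak of the shallow SNDX-5613 replicate 3 had a −log10 q of 2.96 and that of DMSO replicate 2 had 2.92. Both fell just below this threshold and entered at 0, whereas SNDX-5613 replicates 1 and 2 had 22.7 and 22.0.

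The PAK5 pileup was 8 in DMSO replicate 2, and 32, 34 and 5 in SNDX-5613. Over the genome-wide background this was 6.13 in DMSO replicate 2 and 25.4, 22.5 and 23.7 in SNDX-5613. The 5 fragments of SNDX-5613 replicate 3 gave an interval of 7.69 to 55.3, which overlapped that of DMSO replicate 2, at 2.65 to 12.1, whereas the intervals of replicates 1 and 2 did not. The 3 SNDX-5613 summits lay at -74, -74 and -94 bases from the canonical start at chr20:9839076. They were within 3 to 12 bases of the tandem ATTGG, and the summit of DMSO replicate 2 lay 101 bases downstream of that start. At PAK4, whose window held 3 matches, the summits of both groups lay 41 to 53 bases from the nearest match. No such distance over other promoters with a match is at hand, so the distances at PAK3 and PAK5 are a description.

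Inside the 302 kb PAK5 gene, the strongest site away from any start overlapped between groups. This intronic site at chr20:9618005-9618393 had percentiles of 48.2, 43.3 and 36.8 in DMSO, and 18.6, 46.8 and no peak in SNDX-5613. An intronic neighbour at chr20:9617008-9617455 had 25.0, 18.6 and 27.7 in DMSO and 16.1, 25.2 and 53.3 in SNDX-5613, which overlapped as well.

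When each list was limited to its 40568 strongest regions, the size of the shortest list, the PAK3 and PAK5 promoters stayed in all 3 SNDX-5613 lists and dropped out of every DMSO list. Among all protein-coding genes this pattern was found in 0.39%, and the opposite in 0.055%. The other 4 PAK genes had a promoter peak in all 6 shortened lists. At 20000 regions, the PAK3 peak remained in 2 SNDX-5613 lists and in 0 DMSO lists. Counted from the strongest region of the full list, it ranked 57537, 74069 and 57838 in DMSO and 26459, 19542 and 18375 in SNDX-5613.

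The remaining group I genes, PAK1 and PAK2, overlapped between groups. PAK1 had promoter percentiles of 68.6, 71.3 and 68.5 in DMSO and 65.9, 69.6 and 72.2 in SNDX-5613, a difference of -0.226 points (exact two-sided permutation p = 1). PAK2 had 76.3, 82.1 and 78.1 in DMSO and 72.8, 71.8 and 92.1 in SNDX-5613, a difference of 0.0569 points (exact two-sided permutation p = 1). In PAK2 the deep SNDX-5613 replicates 1 and 2 lay below every DMSO library and the shallow replicate 3 above, and without replicate 3 the difference of means was -6.56 points. On the fold scale every PAK2 value in SNDX-5613, at 16.3, 14.7 and 15.6, was below the DMSO values of 16.5, 20.3 and 16.8, with an exact two-sided permutation p of 0.1. Fold has 1 added to the pileup and to the local background, which lowers it most where that background is small. The local background was 0.985 in SNDX-5613 replicate 3, against 5.79 to 7.83 in DMSO. Over the genome-wide background that replicate had the highest PAK2 level, 142, and the groups overlapped (exact two-sided permutation p = 0.7).

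PAK1 was accessible at 2 start clusters of unequal strength. The strong peak lay inside the gene at chr11:77411340-77412262, with summits from -44 to 42 bases around the nearest of the coding starts between chr11:77411904 and chr11:77412064. The canonical start at chr11:77474094 was weaker, with percentiles of 9.17, 22.2 and 13.4 in DMSO and 24.5, 13.0 and 14.7 in SNDX-5613, and the groups overlapped. A neighbouring region in the same cluster, chr11:77474269-77474512, had 2.80, 4.46 and 4.11 in DMSO, 12.2 and 9.95 in SNDX-5613 replicates 1 and 2, and no peak in replicate 3. Its level over the genome-wide background was 12.4 to 15.3 in DMSO and 24.6 and 19.9 in those replicates. The strongest PAK1 site away from any start, chr11:77300108-77300364 in the 3′ flank, had 15.6, 9.73 and 15.9 in DMSO. In SNDX-5613 it had 6.65 and 10.1 in replicates 1 and 2, and no peak in replicate 3.

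The strongest PAK2 site away from any start was intronic, at chr3:196792924-196793670. It had percentiles of 29.1, 37.9 and 31.7 in DMSO and 45.2, 35.9 and 56.2 in SNDX-5613, and 1 SNDX-5613 library fell among the DMSO values. Both flanks of PAK2 held the promoter of a neighbour, PIGX upstream and SENP5 downstream, with a peak in all 6 libraries and overlapping groups.

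PAK4, a group II kinase found in most tissues, had the most accessible promoter of the family. Its percentile was 99.6, 98.7 and 93.8 in DMSO and 95.8, 96.0 and 92.4 in SNDX-5613, a difference of -2.65 points (exact two-sided permutation p = 0.3). The level over the genome-wide background was 258, 251 and 177 in DMSO and 195, 167 and 185 in SNDX-5613, also overlapping (exact two-sided permutation p = 0.3). All 6 summits lay between -62 and -50 bases from the start at chr19:39125770. The strongest site away from a start, chr19:39122100-39122326, lay 3550 bp before it, with 42.4, 52.5 and 45.8 in DMSO, 53.2 and 34.7 in SNDX-5613 replicates 1 and 2, and no peak in replicate 3.

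PAK6 was accessible near starts other than its canonical one. The canonical start at chr15:40239063 had no peak within 1 kb in any library. The strongest peak, chr15:40266782-40267301, lay in an intron 412 to 429 bases past the start of a noncoding PAK6 transcript, and gave promoter percentiles of 64.9, 56.9 and 58.7 in DMSO and 59.9 and 48.6 in SNDX-5613 replicates 1 and 2. In SNDX-5613 replicate 3 that site stood at 35.7, and the promoter value of 56.2 came from another noncoding start whose site had 10.1 to 27.0 in the other 5 libraries. The difference was -5.26 points (exact two-sided permutation p = 0.4). That other site lay 953 bp from its start, just inside the 1 kb limit. Just outside it, at 1059 bp, lay chr15:40272722-40272955, with 13.6, 10.2 and 20.5 in DMSO, 15.5 and 6.44 in SNDX-5613 replicates 1 and 2, and no peak in replicate 3.

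The 5′ end of PAK6, at chr15:40217137-40217569, is also the start of a transcript of BUB1B, a mitotic checkpoint kinase, and the peak cannot be assigned to either gene. It had 34.1, 33.8 and 44.1 in DMSO and 43.1, 20.8 and 20.8 in SNDX-5613, with overlap. The strongest PAK6 site away from any start, chr15:40279489-40279801, had 33.7, 26.4 and 25.0 in DMSO and 24.3, 21.2 and 43.9 in SNDX-5613.

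Ordered by DMSO promoter level, the family ran PAK4, PAK2, PAK1, PAK6, PAK3 and PAK5, with means of 97.4 ± 3.10, 78.8 ± 3.00, 69.4 ± 1.58, 60.2 ± 4.21, 3.64 ± 1.82 and 0.0818 ± 0.142 (SD, n = 3). The ranges of neighbours in this order did not overlap in DMSO, and no test of the order was made. In SNDX-5613 the order was the same, but the ranges of PAK2 and PAK1 overlapped. PAK6, at 48.6 to 59.9, still lay above PAK3, at 31.5 to 46.1.

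Over all 84 sites of the PAK loci, 19 were present in all 6 libraries, 33 in 1 library only and 13 in all libraries but SNDX-5613 replicate 3. The latter shares were 39.3% and 15.5%, against 36.2% and 16.0% of all 166021 sites. Of the 19 shared sites, 8 lay within 1 kb of a PAK start, 4 near a start of another gene only and 7 farther from starts. The number of PAK sites was 40, 54 and 49 in DMSO and 54, 46 and 21 in SNDX-5613, with means of 47.7 ± 7.09 and 40.3 ± 17.2 (SD, n = 3), a difference of -7.33 sites (exact two-sided permutation p = 0.7). Without the shallow SNDX-5613 replicate 3, the difference was 2.33 sites.

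No PAK site was present in all 3 libraries of one group and none of the other. That pattern was found in 0.147% of all sites for SNDX-5613 and 1.18% for DMSO. Among the 19 shared sites, all SNDX-5613 percentiles lay above all DMSO percentiles at 1, the PAK3 promoter, and below them at 1, against 8.57% and 8.04% of all 33405 shared sites. The lower site, chr11:77301406-77301813 in the 3′ flank of PAK1, had 26.8, 27.4 and 38.7 in DMSO and 21.4, 17.5 and 18.8 in SNDX-5613, and lay 24 bp from a start of GDPD4.

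In the wider PAK pathway, the promoters with a peak in every library gave no case like that of PAK3. Of 38 named genes, 34 had a promoter peak in all 6 libraries, with 6 of 8 activating GTPases, 7 of 8 adaptors, 4 of 4 inhibitors, 1 of 2 phosphatases, 14 of 14 substrates and 2 of 2 effectors of LIM kinases. All SNDX-5613 percentiles lay above DMSO in 0 of the 34 and below in 3, or 8.82%, against 7.12% and 7.67% of all such promoters. The median difference over the 34 was -1.23 points, against -0.37 over all. Ranked by fold instead of −log10 p, 5 of the 34 were higher and 1 lower. The share over all promoters on that scale is not at hand, so these counts are not read as a pathway result. The 4 genes without a peak in every library were RAC2, RHOJ, ARHGEF6 and PPM1E. Of these, ARHGEF6, a PAK-binding exchange factor of the PIX family, had no peak, 0.703 and 0.799 in DMSO. In SNDX-5613 it had 2.64, 14.9 and 3.98, so that with an absent peak taken as 0 its groups did not overlap either. RAC2 had 23.4, 14.3 and 21.8 in DMSO and 28.8, 26.1 and no peak in SNDX-5613. RHOJ had 0.461 in DMSO replicate 3 only, and 7.83, 2.47 and no peak in SNDX-5613. With the absent peak of the shallow SNDX-5613 replicate 3 taken as 0, RAC2 and RHOJ overlapped between groups.

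The 3 lower promoters were an inhibitor and 2 substrates. ARHGEF2, a microtubule-bound exchange factor for RHOA, had 88.1, 81.7 and 84.7 in DMSO and 74.7, 70.8 and 63.7 in SNDX-5613. ARPC1B, a subunit of the actin-nucleating ARP2/3 complex, had 54.6, 46.9 and 45.5 in DMSO and 36.2, 41.7 and 16.4 in SNDX-5613. INKA2, an inhibitor of PAK4, had 91.8, 88.8 and 89.7 in DMSO and 88.5, 85.7 and 75.5 in SNDX-5613, where the gap between groups, 88.8 against 88.5, was narrow. In all 3 genes the shallow replicate 3 gave the lowest value.

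At the 2 main GTPases that activate PAK, the groups overlapped. CDC42 had 96.9, 95.5 and 98.1 in DMSO and 96.8, 96.5 and 96.3 in SNDX-5613, and RAC1 had 88.7, 92.4 and 97.0 in DMSO and 93.2, 98.4 and 95.0 in SNDX-5613. RHOU, an atypical member chosen here after its values were seen, had 26.7, 6.42 and 6.05 in DMSO and 22.5, 37.9 and 28.2 in SNDX-5613, where DMSO replicate 1 overlapped the treated libraries. No pathway gene had a peak in 3 libraries of one group and at most 1 of the other.

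**Figure D5:**
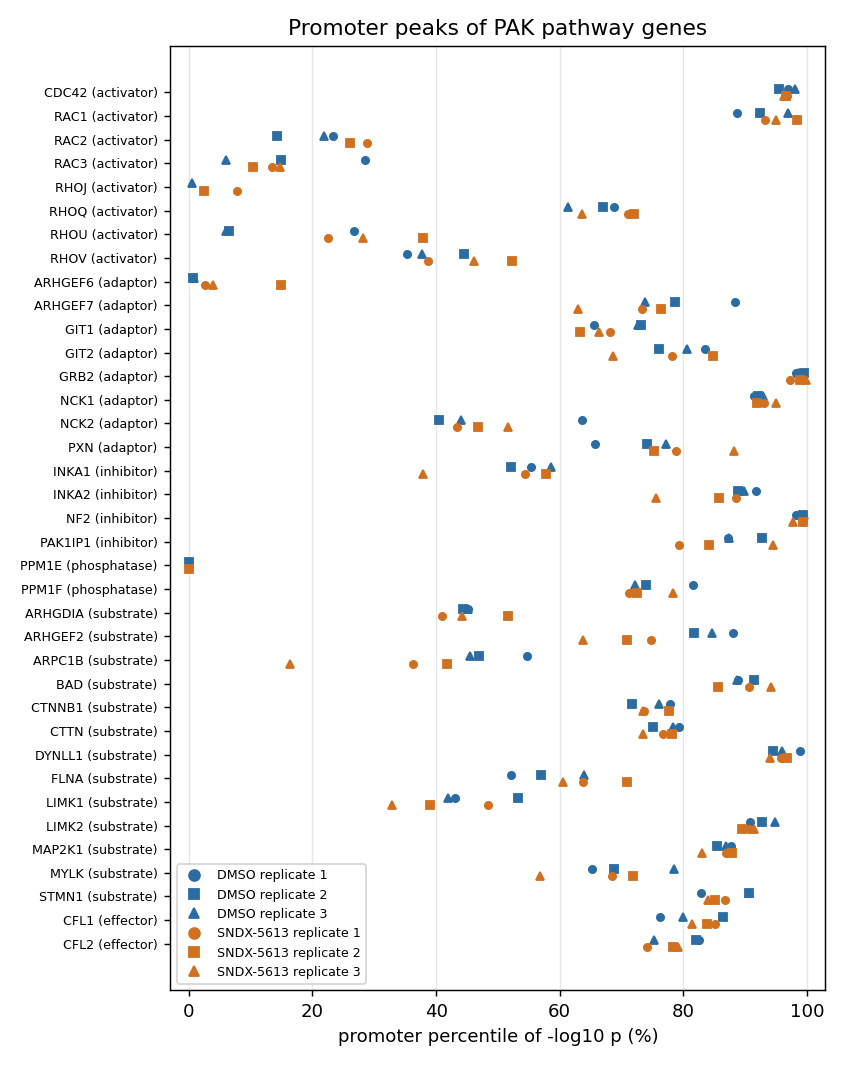
Promoter percentile of −log10 p (horizontal axis, %) for named genes of the PAK pathway, 1 row per gene with its role, and 1 point per library with a peak, DMSO in blue and SNDX-5613 in orange. Among genes with a peak in every library, ARHGEF2, ARPC1B and INKA2 are the 3 whose groups do not overlap, with every SNDX-5613 point left of every DMSO point. RAC2, RHOJ and ARHGEF6 lack a peak in at least 1 library, and their plotted SNDX-5613 points lie right of their DMSO points. PPM1E has 1 point per group, with SNDX-5613 on the left.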

How the data were processed

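ATAC-seq of HLF cells (3 DMSO and 3 SNDX-5613 libraries) was analysed from the peak lists of the 6 libraries and 2 consensus sets, with groups taken from the labels. Per the submitters' processing notes and the study's methods, the authors used Trim Galore 0.6.7, Bowtie2 2.3.4.1, Picard 2.20.0, SAMtools, deepTools 3.5.4 and MACS2 on hg38, and RMSPC for the consensus sets. Duplicates were marked. Their removal, a Tn5 shift of the reads and a blacklist are not given in the sources used here, and an unshifted read moves a summit by a few bases. The deposited columns used were fold enrichment over local background (a ratio, with 1 added to pileup and background), −log10 p and −log10 q. The deposited q-value served for a stricter threshold only. Read counts were not analysed here, so the study's count model was not fitted.

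Summits sharing a region were merged, keeping the strongest, and regions overlapping by 1 bp or more on chromosomes 1 to 22, X and Y were merged to sites. No summit lay past the end of an hg38 chromosome. Starts came from GENCODE release 44. A gene's promoter value was the highest −log10 p within 1 kb of any start, and a library without one entered means and tests at 0. Pileups were solved from fold and −log10 p (tolerance 0.002); 99.98% to 100.0% came out whole, against 1.04% to 1.26% with p shuffled. Differences of group means were tested by permuting the library labels exactly (two-sided); the smallest p is 0.1, and such tests measure only the spread between these libraries, possibly technical. The study describes each replicate as 1 dish divided between treatments, which would tie a DMSO to an SNDX-5613 library, but the labels do not say that the replicate number marks the dish. Same-numbered libraries did not deviate together (correlations 0.000308 to 0.031), so the reported tests have no block. Scripts (Python 3.11.15, NumPy 2.4.6, SciPy 1.17.1, pandas 2.3.3) were tested on simulated data.

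Members and lists were chosen with earlier results of these data known. Named were the PAK promoters, every PAK3 site and the 5 promoters closest to PAK3. For other members they were the main sites at starts, the strongest site away from any start, and shared sites whose groups did not overlap. Some weaker sites at starts of PAK1, PAK4 and PAK6 are not named. Pathway genes were named when their groups did not overlap. The same held for any with peaks in 3 libraries of one group and at most 1 of the other. Among the counted pathway genes, 1 is not reported here by name. Lineage genes, CDC42, RAC1, RHOU, RAC2, RHOJ, ARHGEF6 and PPM1E were added afterwards. Printed windows end at a start, so that they hold no exon, and were chosen after values were seen. Alternatives covered the reference set, the ranked measure, the promoter distance, the threshold, list length, site definition, locus width and each library left out.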

Additional observations from a re-analysis of the deposited data

How the results depend on the processing

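The PAK3 and PAK5 differences kept their direction under every alternative run, but that of PAK5 varied in size: it was 44.6 points in whole-list ranks, 2.17 with an equal number of regions and 6.89 (exact p = 0.4) at −log10 q of at least 3, against 15.1 (exact p = 0.1). In ranks within the whole list of each library, the PAK2 difference was -0.954 points, and 2 shared sites were higher (the PAK3 promoter and a flank site of PAK2) and 0 lower. With ranking by fold, the PAK4 difference was 0.179 points, 5 pathway promoters were higher (among them RHOQ, NF2, MAP2K1 and CTTN) and 1 lower (ARHGEF2). With an equal number of regions, the PAK3 difference was 24.4 points, 3 sites were gained (the PAK3 and PAK5 promoters and an intronic PAK5 site) and the number of sites was 3.67 higher in SNDX-5613. Within 100 kb, 1 site was lost, in the flank of PAK6. As pileup over background, the log2 ratio of group means was -0.12 for PAK2, 1.94 for PAK3 and 2.08 for PAK5. The PAK5 value is not a measured ratio, since DMSO replicates 1 and 3 had no peak. They entered it at the weakest call of the library, 6.02 and 4.84. The cause of these changes was not tested. With each library left out in turn, which also changes the reference set of shared sites, the difference ranged from -0.937 to 1.44 points for PAK1, -3.67 to 3.60 for PAK2, 35.4 to 49.9 for PAK3, -4.39 to -0.817 for PAK4, 14.4 to 39.7 for PAK5 and -7.73 to -2.08 for PAK6. The upper values for PAK3 and PAK5 were those without the shallow SNDX-5613 replicate 3. The number of sites ranged from -13.7 to 2.33, higher pathway promoters from 2 to 3 and lower ones from 4 to 6, higher shared sites from 1 to 4 and lower ones from 1 to 3, gained sites from 0 to 1 and lost sites from 0 to 2. With 1 library fewer, groups separate more easily by construction. For the counts of sites and pathway promoters under these alternatives, no share over all sites or promoters is at hand. They cannot be read as results about the members. The replicate block, a sign-flip test over pairs of equal number, gave a PAK5 difference of 15.1 (exact sign-flip p = 0.25). Its smallest p is 0.25 and that of the unblocked test is 0.1. Neither test could reach 0.05, so the block could change no call and gives no support for leaving it out. Whether a number marks 1 divided dish is not stated in the labels. Depth limits what SNDX-5613 replicate 3 could show below 14.2-fold over background.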

Other observations

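The deposited consensus sets of both groups held a region at the PAK3 promoter, 463 bp wide in the DMSO set and 701 bp wide in the SNDX-5613 set. Both sets also held a region at the PAK5 promoter, 1178 bp wide in the DMSO set and 1028 bp wide in the SNDX-5613 set, although 1 of the 3 DMSO lists, that of replicate 2, had a PAK5 promoter peak and that peak was 148 bp wide.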
